A study of Mus musculus with 2 samples.

Results

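The tumour suppressor gene Trp53, its regulator Mdm2 and 8 direct targets of the p53 protein (Ccng1, Bax, Bbc3, Pmaip1, Zmat3, Perp, Trp53inp1 and Aen) were followed in mouse embryonic stem cells grown in a microfluidic chamber or on a standard plate. These 10 genes were chosen by symbol, each was measured by 1 probe set of its own, and all 10 were among the 19075 genes, of 23337 measured, that passed the filter on low signal. The cells were ES-D3, an established pluripotent line of strain 129S2/SvPas. There were 2 arrays of total RNA, 1 from cells cultured in a microchamber under minimal perfusion and 1 from cells cultured on a 6-well plate, with no replicate of either. Seeding density (20000 cells per square centimetre), culture time (3 days) and medium were shared, and the medium held 15% serum with 1000 U of the self-renewal cytokine LIF (leukaemia inhibitory factor). The comparison asked how culture in the chamber alters expression in these cells.

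The p53 protein is a transcription factor that is held at a low level by Mdm2, a ubiquitin ligase that marks it for destruction, and Mdm2 is itself switched on by p53, which closes a negative feedback loop. When DNA damage or other stress frees p53 from Mdm2, it activates genes that arrest the cell cycle, repair DNA, alter metabolism or start apoptosis. Because p53 is regulated largely through the stability and modification of the protein, the Trp53 transcript measured here is not a measure of p53 activity. Mouse embryonic stem cells are known for abundant p53 and a low threshold for apoptosis.

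Values are log2 signals after robust multi-array averaging (RMA), which brings both arrays to a closely similar overall distribution. Every difference is the microchamber value minus the plate value. With 1 array per condition no test was possible, so the values describe these 2 arrays only. Spread within the pair was gauged in 2 ways. For 95% of the 19075 genes the difference fell from -0.61 to 0.58, around a median of -0.01. For 919 genes with 2 distinct probe sets, readings of the difference by single probe sets of a gene had a standard deviation (SD) of 0.21 within the gene. For comparison at like signal, genes were also put into 4 equal groups by their mean value on both arrays, called signal groups here. From the lowest to the highest signal group, the SD of the difference was 0.13, 0.24, 0.36 and 0.35. All 10 pluripotency markers passed the filter. Of these, 8 were above 0 and 2 below (Dppa5a at -0.30 and Utf1 at -0.22). Among all genes past the filter, 46.9% were above 0 and 52.3% below. The 10 markers had a median difference of 0.21, with median values of 10.83 in the microchamber and 10.44 on the plate. Of 12 fibroblast markers 9 passed the filter, of which 8 were lower in the chamber and 1, S100a4 at 0.40, was higher. S100a4 had 5.57 in the chamber and 5.16 on the plate. It passed through the chamber array alone, since its plate value was under that array's 20th percentile of 5.17. The 9 had a median difference of -0.35, with median values of 5.99 in the chamber and 6.34 on the plate. Of the other 3, the matrix genes Postn, Dcn and Lum, none passed. The part of either marker group's cells in the differences below was not tested.

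Trp53, Mdm2 and cyclin G1 were all slightly higher in the microchamber, by nearly equal amounts. Trp53 (chromosome 11, 69580348 to 69591873, GRCm38) had 11.71 in the microchamber and 11.46 on the plate, a difference of 0.25 or 1.19-fold. Mdm2 (chromosome 10, 117688875 to 117710758) had 10.83 in the microchamber and 10.61 on the plate, a difference of 0.22. Ccng1 (chromosome 11, 40748552 to 40755309) had 11.69 in the microchamber and 11.46 on the plate, also a difference of 0.22. Ccng1 encodes cyclin G1, a p53 target that directs protein phosphatase 2A to Mdm2 and so belongs to the same feedback loop. The 3 differences are close to the probe set SD of 0.21, and 38.3% of the genes in the same signal group were at least as far apart as Trp53. The 3 differences thus spanned only 0.22 to 0.25. In bulk RNA such as this, a change in the share of cells that express a gene and a change in RNA per cell cannot be told apart.

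The apoptotic effectors among the targets divided. Bax (chromosome 7, 45461695 to 45466903), which encodes a pore-forming protein of the outer mitochondrial membrane, had 10.32 in the microchamber and 10.21 on the plate, a difference of 0.11. Aen (chromosome 7, 78895927 to 78911209), which encodes a nuclease that degrades DNA and RNA during apoptosis, had 8.25 in the microchamber and 8.01 on the plate, a difference of 0.24. Both were above 0, and that of Bax was smaller than the probe set SD. Bbc3, Pmaip1 and Perp were on the other side. Bbc3 (chromosome 7, 16308398 to 16318334) encodes PUMA, a BH3-only protein that neutralises the anti-apoptotic members of the BCL2 family, and had 6.00 in the microchamber and 6.18 on the plate, a difference of -0.18. The difference of Bbc3 was also smaller than the probe set SD. Its signal lay around the middle value of all single-symbol probe sets, 6.10 on the chamber array and 6.13 on the plate array, and differences are narrower at low signal.

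Pmaip1 and Perp showed the widest gaps of the 10 genes. Pmaip1 (chromosome 18, 66458604 to 66465558) encodes NOXA, a BH3-only protein that binds MCL1, and had 7.41 in the microchamber and 8.22 on the plate. It was 1.76-fold lower in the microchamber, a difference of -0.82, which ranked 188 from the lowest of the 19075 genes and was the only one of the 10 outside the middle 95% of all genes. In its signal group, 3.15% of genes were at least as far apart. Perp (chromosome 10, 18845071 to 18857073) encodes a membrane protein of desmosomes that also takes part in p53-dependent apoptosis, and had 8.57 in the microchamber and 9.16 on the plate. Its difference of -0.59 was just past 1.5-fold, and 8.11% of the genes in its signal group were at least as far apart. Each gene rests on 1 probe set, so no second probe set was at hand to set beside either value.

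Trp53inp1 and Zmat3, which act outside the core death machinery, differed from each other. Trp53inp1 (chromosome 4, 11156441 to 11174379), whose product promotes p53 phosphorylation and takes part in autophagy, had 10.73 in the microchamber and 10.29 on the plate. Its difference of 0.44, or 1.36-fold higher, was the highest of the 10 genes, and 15.5% of genes in its signal group were at least as far apart. Zmat3 (chromosome 3, 32334792 to 32365665), which encodes a zinc finger protein that binds RNA and influences splicing, had 8.99 in the microchamber and 9.05 on the plate, a difference of -0.06. A second probe set is annotated to both Zmat3 and 4930429B21Rik and did not enter these values. It had 6.68 in the microchamber and 6.28 on the plate, a difference of 0.39 in the opposite direction, so the sign for Zmat3 is not settled by these arrays.

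**Figure D1:**
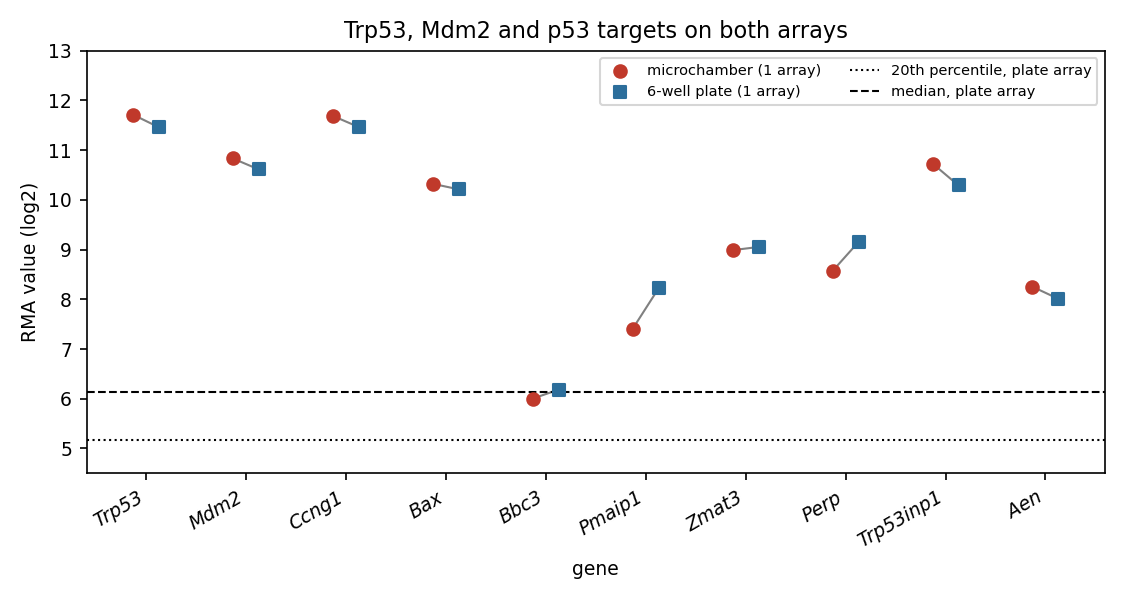
RMA values (log2) of the 10 genes on the microchamber array (circles) and the 6-well plate array (squares), 1 array each with no error bar, with the 20th percentile and the median of the plate array as lines. Pmaip1, at 7.41 and 8.22, and Perp, at 8.57 and 9.16, slope most clearly from chamber to plate, and Trp53inp1 slopes the other way, at 10.73 and 10.29.

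Considered together, 6 of the 10 genes were higher in the microchamber and 4 were lower, against 46.9% of all genes above 0 and 52.3% below 0. Their median difference was 0.17, against -0.01 for all genes past the filter and 0.21 for the 10 pluripotency markers. The 6 genes above 0 spanned 0.11 to 0.44, and the 4 below spanned -0.82 to -0.06. At a threshold of 1.5-fold, none of the 10 genes was higher and 2 were lower, Pmaip1 and Perp. Among all genes the share past this threshold was 2.47% in the higher and 2.77% in the lower direction. In the highest signal group, which held 7 of the 10 genes, these shares were 4.38% and 3.73%. In the next group down, which held Pmaip1 and Aen, 201 of 4768 genes were higher and 250 lower at this threshold. None of the 10 reached 2-fold, a threshold passed by 0.786% of all genes in either direction. Perp lay almost exactly at 1.5-fold and dropped below it when differences were centred on their median. The values thus showed no common direction across the targets, with small positive differences in the Trp53, Mdm2 and Ccng1 loop beside larger negative ones in Pmaip1 and Perp.

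**Figure D2:**
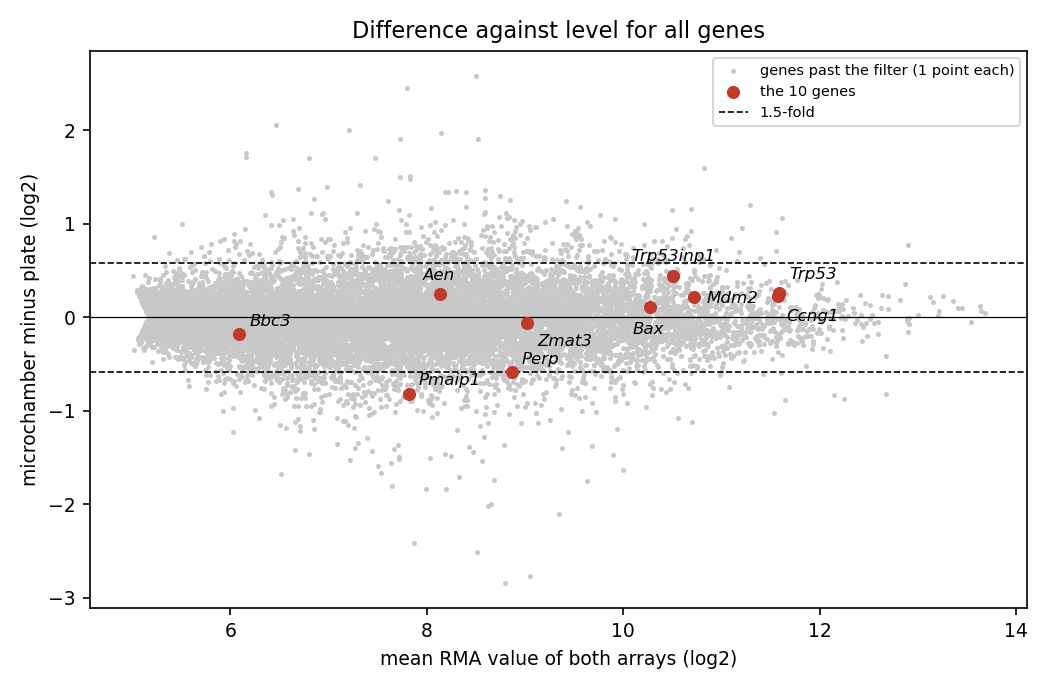
Difference (microchamber minus plate, log2) against the mean RMA value of both arrays (log2) for the 19075 genes past the filter (grey) and the 10 genes (red), with dashed lines at 1.5-fold. Pmaip1 lies below the lower line, Perp lies on it, and the other 8 genes lie inside the lines.

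p53 binds DNA as a tetramer, at a pair of 10-base half-sites that each carry a C and a G at fixed places. RefSeq start-site sequences for GRCm38 were held for 6 of the 10 genes, Trp53, Mdm2, Ccng1, Bax, Aen and Bbc3, and not for Pmaip1, Zmat3, Perp and Trp53inp1. They cover 250 bases before to 50 bases after each annotated transcript start and were searched for the half-site consensus, which reads the same on both strands. A half-site without mismatch was held by 5 of the 6 genes (all except Bbc3) and by 9.55% of all genes with such a sequence. A pair of half-sites at most 1 base apart, each with its C and G in place and with up to 3 mismatches over both, was held by 5 of the 6 genes (all except Mdm2) and by 3.27% of all genes. The 2 kinds of match overlap in 4 genes. Bases outside these sequences were not searched, so a gene without a match here may hold one elsewhere. A match is a run of letters and not evidence of binding. These genes were picked as the p53 gene itself, its regulator Mdm2 and known p53 targets.

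Shown here are the 250 bases before the start for the 3 genes of the feedback loop and for Bax, the apoptotic target whose pair came closest to the consensus, in the direction of transcription. Capitals mark the matched half-site or pair. They lie at chr11:69580109-69580358 on the plus strand for Trp53, and on the minus strand at chr10:117710759-117711008 for Mdm2, chr11:40755287-40755536 for Ccng1 and chr7:45466899-45467148 for Bax.
Trp53: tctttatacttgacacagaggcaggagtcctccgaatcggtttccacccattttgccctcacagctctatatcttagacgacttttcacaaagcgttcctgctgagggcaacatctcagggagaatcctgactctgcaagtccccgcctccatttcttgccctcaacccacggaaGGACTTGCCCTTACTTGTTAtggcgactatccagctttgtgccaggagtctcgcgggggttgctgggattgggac
Mdm2: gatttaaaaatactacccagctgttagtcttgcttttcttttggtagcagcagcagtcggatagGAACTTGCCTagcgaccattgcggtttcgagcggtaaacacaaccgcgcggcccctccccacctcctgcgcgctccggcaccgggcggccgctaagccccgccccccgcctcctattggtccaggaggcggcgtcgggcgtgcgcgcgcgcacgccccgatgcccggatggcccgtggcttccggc
Ccng1: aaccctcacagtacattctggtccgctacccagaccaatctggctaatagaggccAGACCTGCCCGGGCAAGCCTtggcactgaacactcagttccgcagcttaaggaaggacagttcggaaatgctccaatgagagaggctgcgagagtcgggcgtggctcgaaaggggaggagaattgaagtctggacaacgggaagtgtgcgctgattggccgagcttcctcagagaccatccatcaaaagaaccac
Bax: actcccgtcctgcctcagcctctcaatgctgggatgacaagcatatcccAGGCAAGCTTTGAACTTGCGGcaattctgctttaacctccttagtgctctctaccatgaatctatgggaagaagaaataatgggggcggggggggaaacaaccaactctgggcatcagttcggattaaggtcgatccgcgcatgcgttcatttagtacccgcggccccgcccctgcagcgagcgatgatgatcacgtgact
The pair in Ccng1 had 1 mismatch and lay at -195 to -176 from the start. That in Bax had 2 mismatches, with 1 base between its half-sites, and lay at -201 to -181. That in Trp53 had 3 mismatches and lay at -75 to -56, and the single half-site of Mdm2 lay at -186 to -177. The pairs of the other 2 genes had 3 mismatches each and are given without their surroundings.
Aen: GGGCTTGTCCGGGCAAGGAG
Bbc3: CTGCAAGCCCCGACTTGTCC
The 5 genes with a half-site had differences of 0.11 to 0.25 and Bbc3, which had none, was at -0.18. Those of Bax and Bbc3 were smaller than the probe set SD. The wider p53 targets described below did not show that division. Of 8 with a half-site, 3 were above 0 and 5 below, with a median of -0.18, and of 43 without one, 19 were above 0 and 24 below, with a median of -0.02. Over all genes past the filter, the median was -0.02 for the 1205 with a half-site and -0.01 for the 12821 without.

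**Figure D3:**
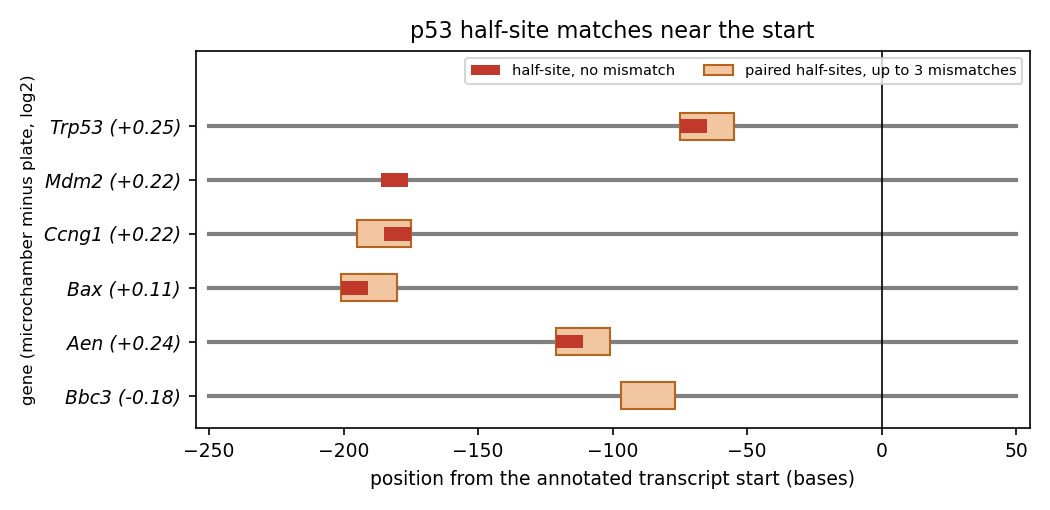
Positions (bases from the annotated transcript start) of half-site matches without mismatch (red) and of paired half-sites with up to 3 mismatches (orange outlines) in 6 genes, with the microchamber minus plate difference (log2) after each name. For Aen and Bbc3, which have several annotated starts, the sequence shown is the most downstream one that holds a match, and Bbc3 is the only gene of the 6 with no red bar.

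Regulators that act on p53 were examined next. Of 32 measured genes 17 were above 0, 14 below and 1 at 0, with a median of 0.02. At 1.5-fold, 4 were higher and 1 was lower. Among all genes 46.9% were above 0 and 52.3% below, and at 1.5-fold 2.47% were higher and 2.77% lower. The 4 higher genes were in the highest signal group, where 4.38% of genes were higher. The shares of all genes also stand beside the counts of the lists below. The acetyltransferase genes Crebbp and Ep300, whose products are co-activators of p53 and of many other factors, were both higher. Crebbp had 10.71 in the microchamber and 9.72 on the plate, a difference of 0.99, and Ep300 had 10.15 and 9.55 on the same arrays, a difference of 0.60. Sirt1, which encodes a deacetylase that acts on p53, had 9.40 in the microchamber and 8.43 on the plate, a difference of 0.97. Atm, which encodes the kinase that signals DNA double-strand breaks to p53, had 8.99 in the microchamber and 8.33 on the plate, a difference of 0.67. The exception in the other direction was Smyd2, which encodes a lysine methyltransferase that acts on p53, with 7.20 in the microchamber and 7.96 on the plate, a difference of -0.76. Genes of both acetylating and deacetylating enzymes were thus among the higher ones.

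The regulators named above were picked for the size of their differences, so the rest of that list differed less by construction. Some of the rest are given here, and whether closeness to Mdm2 matters was not tested. Mdm4, the Mdm2 relative that binds and inhibits p53, was at -0.05, and Usp7, which encodes a deubiquitinase of p53 and Mdm2, was at 0.24. Ppm1d, which encodes the p53-induced phosphatase WIP1 that returns the pathway to rest, was at 0.37 and the kinase gene Hipk2 at 0.51. The checkpoint kinase genes Chek1 and Chek2 were at -0.03 and -0.04. Cdkn2a, whose ARF product blocks Mdm2, was at -0.18, and the inhibitor of p53-dependent apoptosis Ppp1r13l was at -0.28. The 1 probe set of Cdkn2a is annotated to the gene and not to ARF alone. The differences of Mdm4, Chek1, Chek2 and Cdkn2a were smaller than the probe set SD of 0.21.

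Other p53 targets, listed by the process they serve, also showed no shared direction. Of 17 in growth arrest and signalling 9 were above 0 and 8 below, with a median of 0.02 and none at 1.5-fold. Cdkn1a, which encodes the cyclin-dependent kinase inhibitor p21 and is the best-known arrest target of p53, had 9.92 in the microchamber and 10.10 on the plate, a difference of -0.18. The highest of this list were Phlda3, which encodes an inhibitor of AKT, at 0.27, and the long non-coding RNA gene Pvt1, also at 0.27. Gadd45a was measured only by a probe set annotated to another transcript as well, with 8.21 in the microchamber and 8.79 on the plate.

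Of 12 targets in DNA repair and nucleotide supply 9 were below 0 and 3 above, the largest share of lower genes among the 4 target lists, with a median of -0.17. None was 1.5-fold apart. Rad51c, of homologous recombination, had 7.76 in the microchamber and 8.33 on the plate, a difference of -0.57. Polh, which encodes a polymerase that copies past ultraviolet lesions, was at -0.57, the excision repair nuclease gene Ercc5 at -0.47, the lesion bypass polymerase gene Polk at -0.46 and the ribonucleotide reductase subunit gene Rrm2b at -0.44. Rev3l, the catalytic subunit gene of another lesion bypass polymerase, was highest at 0.23. The list median was -0.09 when Ddb2 and Trp53i13, which share their probe sets with other genes, were counted.

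Metabolic targets ranged most widely of the 4 target lists. Of 14 genes 7 were above 0 and 7 below, with a median of -0.05, which was 0.02 when shared probe sets were counted under each symbol. Ddit4, which encodes an inhibitor of mTORC1 and responds to low oxygen as well as to p53, was 5.70-fold lower in the microchamber, at 7.25 against 9.76 on the plate. The sestrins, which also restrain mTORC1, were divided, with Sesn1 at 7.13 in the microchamber and 7.69 on the plate (-0.56) and Sesn2 at 9.84 and 9.28 on the same arrays (0.55). Pltp, which encodes a phospholipid transfer protein, was at 0.59 and just past 1.5-fold. The mitochondrial glutaminase gene Gls2 was at -0.51 and Tigar, which lowers glycolytic flux, at 0.22.

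Of 16 other targets in cell death and autophagy 9 were below 0 and 7 above, with a median of -0.16. Only Trp53i11, a p53-inducible gene, was 1.5-fold apart, with 10.09 in the microchamber and 10.86 on the plate, a difference of -0.77. The next lowest were Aifm2, which encodes a ubiquinone reductase that protects against ferroptosis, at -0.57, the executioner caspase gene Casp6 at -0.53 and the apoptosome scaffold gene Apaf1 at -0.40. Highest was Dapk1, the gene of a death-associated kinase, at 0.32. The death receptor gene Fas had 5.26 in the microchamber and 5.38 on the plate, close to the 20th percentile of 5.18 and 5.17 on these arrays, where little difference could be seen.

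**Figure D4:**
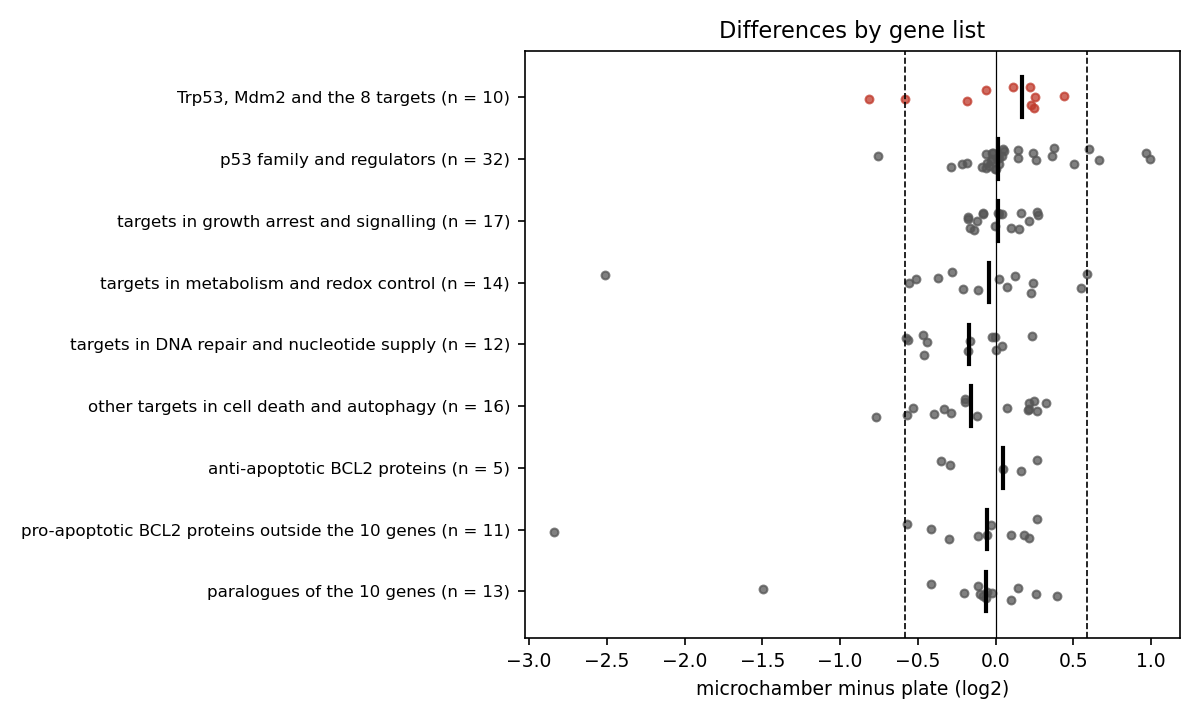
Difference (microchamber minus plate, log2) of each gene past the filter, by list, with the list median as a black bar and dashed lines at 1.5-fold. The points far to the left are Bnip3 at -2.84, Ddit4 at -2.51 and Ccng2 at -1.49, and the 10 genes (red, top) spread from -0.82 to 0.44.

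Apoptosis at the mitochondria depends on the balance between BCL2 family members, and genes of both kinds lay on either side of 0. Among 11 pro-apoptotic members outside the 10 genes 7 were below 0 and 4 above, with a median of -0.05. Bcl2l11, which encodes the BH3-only protein BIM, had 6.94 in the microchamber and 7.51 on the plate, a difference of -0.57. Bak1, the pore-forming partner of Bax, had 8.05 in the microchamber and 8.46 on the plate, a difference of -0.41, while Bid, a BH3-only gene, was at 0.27. Bnip3, an atypical member that is induced by low oxygen and acts in mitophagy, was 7.15-fold lower. Of 5 anti-apoptotic members past the filter 3 were above 0 and 2 below, with a median of 0.05. Mcl1, whose product is the binding partner of NOXA, was at -0.35, and its 2 probe sets were at -0.25 and -0.45. Bcl2l2 was at -0.30 and Bcl2l1, which encodes BCL-XL, at 0.27. Bcl2 itself had 5.43 in the microchamber and 5.38 on the plate, near the low end of both arrays. Its 2 probe sets were at -0.01 and 0.11. Bcl2l10, also counted above 0, was as low, with 5.41 in the microchamber and 5.25 on the plate.

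Downstream genes of apoptosis are given singly, since the list of caspases, the apoptosome and the inhibitor of apoptosis (IAP) proteins was used here only in part and has no count or median. The initiator caspase genes differed, with Casp8, of the death receptor route, at 8.76 in the microchamber and 8.37 on the plate (0.39) and Casp9, of the mitochondrial route, at 7.59 and 7.67 on the same arrays (-0.08). The IAP genes Birc2 and Birc5 were at -0.49 and -0.41, and Xiap was at 0.22. Fadd, the adaptor gene of death receptors, was at 0.34 and Diablo, whose product blocks IAP proteins, at 0.27. No single direction was shared by these genes.

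Several of the 10 genes have close relatives on the array. The relative of Ccng1, Ccng2, which encodes cyclin G2 and is regulated by FOXO factors, had 6.97 in the microchamber and 8.47 on the plate. It was 2.82-fold lower, while Ccng1 was at 0.22, close to the probe set SD of 0.21. Trp53inp2, the relative of Trp53inp1 with a role in autophagy, was at -0.06, against 0.44 for Trp53inp1. Bak1 at -0.41 stood beside Bax at 0.11, and Mdm4 at -0.05 beside Mdm2 at 0.22. The p53 relatives Trp63 and Trp73 had 5.22 and 5.82 in the microchamber and 5.25 and 5.68 on the plate. Of the 13 relatives 9 were below 0 and 4 above, with a median of -0.06.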

How the data were processed

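Total RNA was measured on Affymetrix Mouse Gene 2.0 ST arrays. The deposited log2 values come from RMA (background correction, normalization between arrays and a summary per probe set) and a low-signal filter at the 20th percentile, per the series' design text. Affymetrix Expression Console 1.4.1 and Transcriptome Analysis Console 3.0 were used, per the submitters' processing notes, and the file headers name the mm10 build. The authors also deposited a log2 fold change (plate minus chamber, which equalled the 2 values' difference within 1e-05) and an absolute fold as a ratio, which is not used. RMA removes any shift of most genes in one direction, and its summaries compress differences at low signal.

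Of 33793 probe sets, 24708 with 1 gene symbol were used. Symbols were updated through the RefSeq table for GRCm38 and probe sets of a gene averaged. A gene was kept when either array was at or above that array's 20th percentile, 5.18 in the chamber and 5.17 on the plate. Of the 173 genes in the lists, 165 were measured. A few genes of the apoptosis list are not reported here. Genes at least 1.5-fold apart were counted. Differences were computed with Python 3.11.15 and pandas 2.3.3 and tested on simulated data. Named genes were the 10 genes, up to 4 highest and 4 lowest of each list, all list genes past 1.5-fold and 14 fixed by name. Some further genes were named outside this rule, among them Usp7, Chek1, Chek2, Hipk2, Rrm2b, Fas, Xiap and Diablo. The genes and lists were chosen with earlier results of these data known. With 1 array per group, the number of arrays limits the precision. The alternatives were other filters, centring, loess, the brightest probe set, shared probe sets, the series matrix and other folds. A further one, not among those planned, shortened the lists. It left out genes found in several lists, the 10 genes, and Bnip3, Bnip3l, Ddit4, Ccng2 and Sesn2, which were taken as induced by low oxygen.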

Additional observations from a re-analysis of the deposited data

How the results depend on the processing

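No paired analysis was possible because each group had 1 array, and for the same reason no replicate could be left out. Of 196 recomputed values, 185 moved little: single genes by less than the probe set SD of 0.21, medians by less than that SD scaled down for the number of genes in the list, and counts by no more than 1.5 times. The differences of Trp53, Mdm2, Ccng1, Bax, Bbc3, Pmaip1, Perp, Trp53inp1 and Aen kept their sign under no filter, the filter at the median, centring, loess, the brightest probe set, shared probe sets and the series matrix. Zmat3 went to 0.16 when its shared probe set was counted, a setting added after the data were seen. The count of genes at least 1.5-fold apart was 1 in place of 2 after centring and after the loess trend was removed, since Perp lay at the threshold, and 0 at 2-fold. With shared probe sets counted, the median was -0.0913 for DNA repair targets under both ways of counting, and for anti-apoptotic genes it was -0.14 under the first symbol and -0.12 under each symbol, as near-identical Bcl2a1 copies entered. Counted under each symbol, the metabolic target median changed sign, from -0.05 as reported to 0.02. The anti-apoptotic median, 0.05 as reported, was -0.30 with the filter at the median, which removed low genes, and that of the other death targets was -0.0639. The fibroblast marker median, -0.35, was -0.11 with no filter. Signal near the low end of both arrays limits what can be seen for Fas, Bcl2, Bcl2l10 and Trp63.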
